A study of Mus musculus with 10 samples.

Results

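The Kruppel-like factors (KLFs) are transcription factors that bind GC-rich and CACCC-containing DNA through a run of zinc fingers at their carboxyl end. The 10 genes described here, Klf2, Klf3, Klf4, Klf5, Klf6, Klf7, Klf9, Klf10, Klf13 and Klf15, were taken by gene symbol from a table of read counts for 20692 genes. They were measured in polyadenylated RNA of the ventricular apex of 10 hearts, which the labels also call whole heart. Of these, 5 came from FVB/NJ mice (an inbred strain) labelled female and 9 weeks old and examined 1 week after transverse aortic constriction (TAC), which narrows the aortic arch and loads the left ventricle with pressure. The other 5 came from sham-operated FVB/NJ mice, also labelled female and 9 weeks old. All animals were wild type, with no transgene or drug named, and the comparison asks what 1 week of pressure load does to cardiac transcripts.

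In the adult heart of mice and humans, KLF15 is known as a factor of cardiomyocytes that restrains hypertrophic gene expression and favours the use of fatty acids and branched-chain amino acids. KLF2 and KLF4 are factors of endothelium that respond to flow, and KLF4 also acts in smooth muscle. KLF10 was first described as an early gene of TGF-beta signalling, KLF9 is induced by glucocorticoids, and several members (KLF2, KLF4, KLF6 and KLF10) behave as rapidly induced genes in cultured cells.

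Promoter sequence was available for 8 of the 10 genes, the table used having no entry matched for Klf5 and Klf10. The stretches of 250 bases before the RefSeq gene start (GRCm38.p6) of Klf15 and Klf9, which had the lowest values in TAC relative to sham, and of Klf7 and Klf3, which were higher in TAC, are shown to set their motif content beside their values. Capitals mark the E-box CACGTG, bound by clock and other helix-loop-helix factors, the GC box GGGCGG and the CACCC box, which KLF and SP proteins bind, each on either strand.
Klf15, chr6:90462326-90462575, plus strand: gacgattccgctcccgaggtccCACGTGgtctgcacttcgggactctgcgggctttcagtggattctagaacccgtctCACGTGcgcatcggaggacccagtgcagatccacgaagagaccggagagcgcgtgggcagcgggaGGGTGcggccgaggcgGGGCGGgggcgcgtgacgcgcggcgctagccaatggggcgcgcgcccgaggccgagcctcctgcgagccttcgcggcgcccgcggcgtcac
Klf9, chr19:23140976-23141225, plus strand: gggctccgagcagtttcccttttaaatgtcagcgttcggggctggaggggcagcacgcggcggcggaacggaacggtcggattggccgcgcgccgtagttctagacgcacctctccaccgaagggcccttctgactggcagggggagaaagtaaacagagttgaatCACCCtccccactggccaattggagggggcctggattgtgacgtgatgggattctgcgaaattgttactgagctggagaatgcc
Klf7, chr1:64121390-64121639, minus strand: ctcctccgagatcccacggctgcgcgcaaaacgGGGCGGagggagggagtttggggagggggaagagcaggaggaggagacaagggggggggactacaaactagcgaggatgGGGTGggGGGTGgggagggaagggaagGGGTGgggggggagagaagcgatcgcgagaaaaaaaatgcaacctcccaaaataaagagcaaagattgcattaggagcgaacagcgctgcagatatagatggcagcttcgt
Klf3, chr5:64803271-64803520, plus strand: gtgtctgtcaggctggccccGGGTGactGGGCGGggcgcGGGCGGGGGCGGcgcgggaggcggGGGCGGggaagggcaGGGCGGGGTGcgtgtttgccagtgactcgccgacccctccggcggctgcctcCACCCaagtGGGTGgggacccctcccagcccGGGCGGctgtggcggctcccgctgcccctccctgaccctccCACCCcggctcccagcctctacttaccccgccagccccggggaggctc
The Klf15 stretch held 2 E-boxes, starting 228 and 172 bases before the gene start, 1 GC box and 1 CACCC box. An E-box was present in 6.02% of the 32851 promoter stretches of this length, and 2 or more in 0.429%. Klf9 held no E-box, no GC box and 1 CACCC box, whereas Klf3 held 6 GC boxes and 5 CACCC boxes, each counted whether or not it overlapped another. Klf7 held 1 GC box and 3 CACCC boxes. Among the other promoters, Klf4 and Klf6 each held 1 E-box. A GC box was present in 32.7% and a CACCC box in 52.0% of all promoter stretches. The half-site AGAACA of the glucocorticoid receptor was in none of the 8 stretches and in 16.1% of all of them. In GENCODE M21, the annotation used below for lengths, some of these genes start elsewhere. Klf7 (minus strand) starts there at 64122282, so its stretch lies inside the gene. Klf3 starts there at 64803388, within its stretch. These matches describe letters in a window and not binding.

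The libraries held 7410967 to 9406094 counts in TAC and 8100749 to 10126574 in sham. Levels are given in CPM (counts of a gene relative to library size, which was scaled by the trimmed mean of M values, TMM). The library labelled TAC replicate 1 went against its female label, with 14 counts of Xist, a non-coding RNA made from an inactive X, where the other TAC libraries held 1165 to 1561 and the sham libraries 1042 to 1161. Ddx3y, a gene of the Y chromosome, had 155 counts there and 0 in every other library. It was the lowest TAC library for 7 of the 10 Klf genes, a position it took for 27.0% of the 12001 tested genes, so the fold changes of the tested Klf genes, and the list counts that change, are also given without it. Sham replicate 2 was the lowest sham library for 5 of the 10 (Klf2, Klf4, Klf6, Klf9 and Klf15), a position it took for 21.6% of tested genes. The alignment tools listed by the submitters' processing notes differed between the groups (TopHat 1.3.0 for TAC, TopHat2 2.0.10 for sham), and this cannot be told apart from the operation.

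Of the 10 Klf genes, 9 had enough counts to be tested, and these 9 passed through their level in both groups. Klf10, Klf7 and Klf3 were higher in TAC and Klf15 was lower, at a Benjamini-Hochberg adjusted p under 0.05 over all tested genes (edgeR, quasi-likelihood). Klf9 missed the threshold narrowly, and Klf2, Klf4, Klf6 and Klf13 did not pass. Over all genes, 18.8% were called higher and 17.0% lower, 35.8% together, so that 4 calls of 9 (44.4%) lie near the background and say nothing particular about the family. The groups did not overlap for 1 of the 9, beside 23.7% of all tested genes. The median log2 fold change of the 9 was 0.03, beside 0.00 over all tested genes. Without the library labelled TAC replicate 1, 4 members were higher (Klf6 joining) and 2 lower (Klf9 joining), where 16.7% and 15.1% of all genes were called in these directions. With library totals in place of TMM scaling, 4 members were higher (Klf6 joining) and 1 was lower, against 27.1% and 9.66% of all genes.

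**Figure D1:**
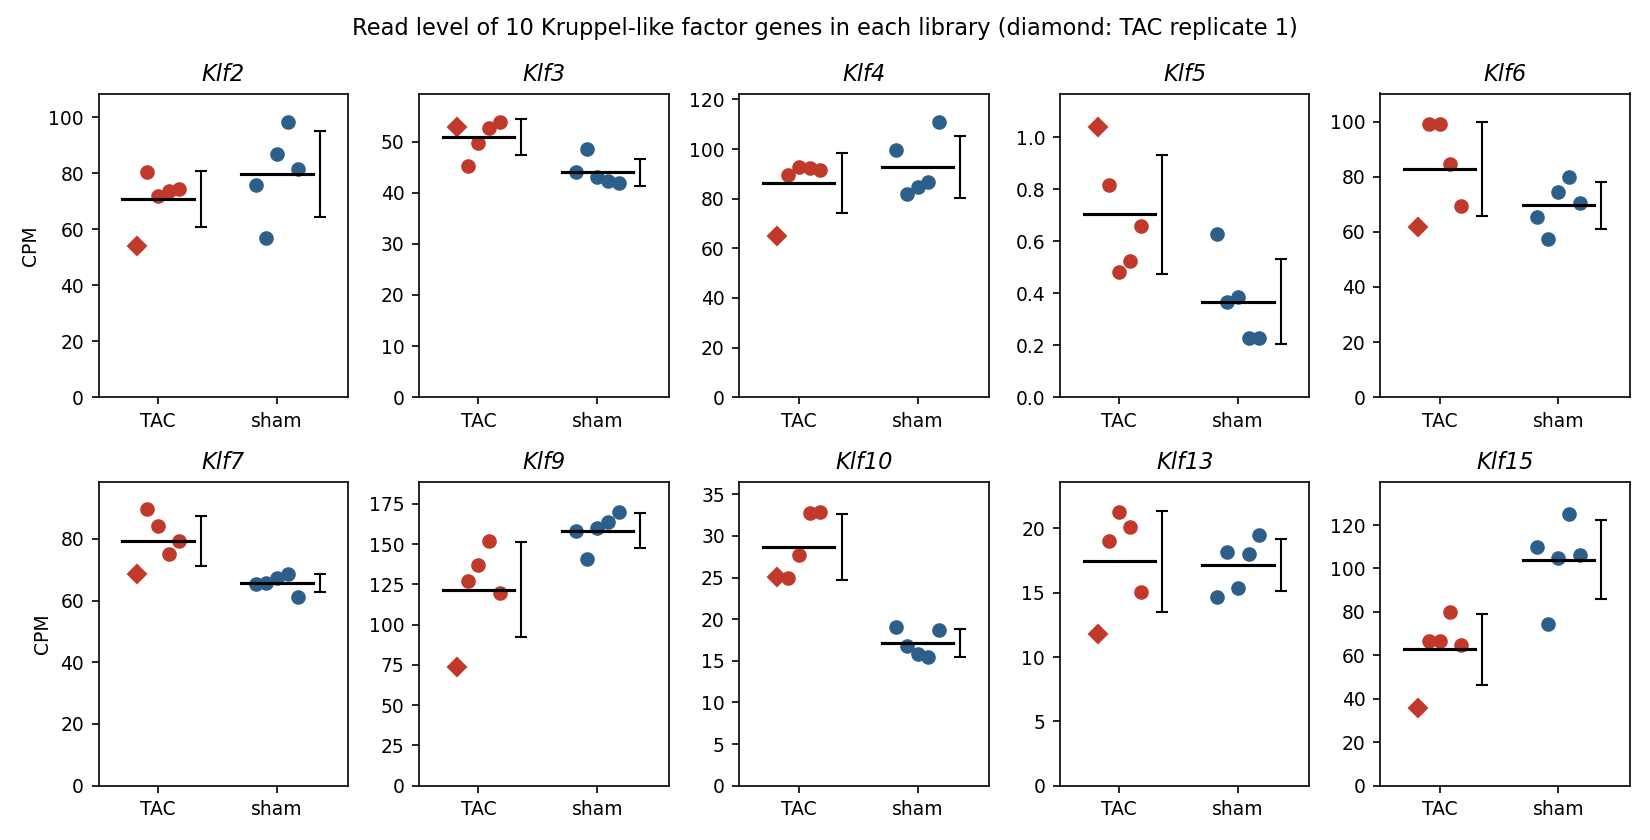
Level of each of the 10 genes in CPM (vertical axes, from 0) in the 5 TAC and 5 sham libraries. Points are libraries (diamond, TAC replicate 1), horizontal lines are means and bars are SD. Klf10 is the one gene whose TAC points all lie above its sham points, and for Klf15 4 of 5 TAC points lie below the lowest sham point.

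Klf15 (ENSMUSG00000030087) had 35.8, 66.5, 66.8, 79.9 and 64.9 CPM in TAC replicates 1 to 5, against 109.7, 74.5, 105.0, 125.0 and 106.4 CPM in sham replicates 1 to 5. The groups touched only through TAC replicate 4, which exceeded sham replicate 2. The mean was 62.8 ± 16.2 CPM in TAC and 104.1 ± 18.4 CPM in sham (SD, n = 5 each), and Klf15 fell to 0.603 of its sham level (log2 fold change -0.73 ± 0.18 SE, adjusted p = 0.00616 by edgeR). It kept its call whichever of the 10 libraries was left out, with adjusted p between 0.00278 and 0.0183 by edgeR. Without the library labelled TAC replicate 1, the log2 fold change was -0.58 (adjusted p = 0.00291 by edgeR).

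Klf9 (ENSMUSG00000033863) had the highest counts of the family. TAC libraries gave 73.6, 126.8, 136.8, 151.7 and 119.8 CPM and sham libraries 158.0, 140.6, 160.0, 163.7 and 169.8 CPM. As with Klf15, 4 of 5 TAC values lay below every sham value, and the exception was TAC replicate 4 against sham replicate 2. The mean was 121.7 ± 29.4 CPM in TAC and 158.4 ± 10.9 CPM in sham (SD, n = 5 each), a log2 fold change of -0.38 ± 0.14 SE with adjusted p = 0.0538 by edgeR. The value of 73.6 CPM in TAC replicate 1 widened the TAC spread. Without it the log2 fold change shrank to -0.24 but passed (adjusted p = 0.0246 by edgeR). It also passed with DESeq2 (adjusted p = 0.0361), and it did not when only library totals were used (adjusted p = 0.124 by edgeR).

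Klf10 (ENSMUSG00000037465) was the member with the clearest difference. It had 25.1, 25, 27.7, 32.8 and 32.9 CPM in the TAC libraries, against 19.1, 16.8, 15.8, 15.4 and 18.7 CPM in the sham libraries. All TAC values lay above all sham values, which was so for 12.2% of tested genes. Klf10 rose 1.67-fold, with 28.7 ± 3.94 CPM in TAC and 17.2 ± 1.65 CPM in sham (SD, n = 5 each; log2 fold change 0.74 ± 0.10 SE, adjusted p = 0.000167 by edgeR). The library labelled TAC replicate 1 was not apart here, and without it the log2 fold change was 0.79. Because Klf10 rose where Klf15 fell, the CPM ratio of Klf10 to Klf15 within a library was 0.376 to 0.700 in TAC, against 0.124 to 0.226 in sham. This ratio is a description, as it combines both calls.

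Klf7 (ENSMUSG00000025959), studied mainly in neurons and fat, had 68.5, 89.7, 84.1, 75.1 and 79.2 CPM in TAC and 65.5, 65.8, 67.4, 68.6 and 61.0 CPM in sham. Only TAC replicate 1 fell inside the narrow sham range. Klf7 rose 1.21-fold (log2 fold change 0.27 ± 0.07 SE, adjusted p = 0.00965 by edgeR), and without that library the log2 fold change was 0.32. Klf3 (ENSMUSG00000029178), a repressor that recruits CtBP proteins, had 52.8, 45.3, 49.8, 52.6 and 53.9 CPM in TAC and 44.1, 48.5, 43.0, 42.3 and 41.9 CPM in sham. Here TAC replicate 2 lay below sham replicate 2, and the other 4 TAC values lay above all sham values. Klf3 rose 1.16-fold (log2 fold change 0.21 ± 0.06 SE, adjusted p = 0.0215 by edgeR), or by 0.20 on the log2 scale without TAC replicate 1 (adjusted p = 0.0433 by edgeR). Its call ended without sham replicate 4 or sham replicate 5 (adjusted p = 0.0555 and 0.0595 by edgeR), whereas that of Klf7 held whichever library was left out.

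Klf6 (ENSMUSG00000000078), a widely expressed factor of stress and injury responses, had 61.7, 99.3, 99.2, 84.5 and 69.2 CPM in TAC and 65.4, 57.4, 74.6, 79.9 and 70.6 CPM in sham. The TAC values were spread 1.61-fold from lowest to highest and overlapped the sham values at their lower end. The log2 fold change of 0.25 ± 0.13 SE did not pass (adjusted p = 0.161 by edgeR). Without the library labelled TAC replicate 1 it was 0.34 and passed (adjusted p = 0.0376 by edgeR), as it did when only library totals were used (adjusted p = 0.0357 by edgeR).

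The endothelial members did not pass. Klf2 (ENSMUSG00000055148) had 54.0, 80.3, 71.8, 73.5 and 74.4 CPM in TAC and 75.8, 56.7, 87.0, 98.2 and 81.6 CPM in sham, with the 2 lowest values split between TAC replicate 1 and sham replicate 2 (log2 fold change -0.17 ± 0.13 SE, adjusted p = 0.33 by edgeR). Without TAC replicate 1 its log2 fold change was -0.09, and without sham replicate 2 it was -0.28 (adjusted p = 0.0678 by edgeR). Klf4 (ENSMUSG00000003032) had 64.8, 89.7, 92.8, 92.2 and 91.7 CPM in TAC and 99.8, 81.7, 84.6, 86.7 and 111.0 CPM in sham. Apart from TAC replicate 1, the TAC values of Klf4 lay within 89.7 and 92.8 CPM, inside the sham range. Its log2 fold change was -0.11 ± 0.11 SE (adjusted p = 0.477 by edgeR) and -0.02 without that library.

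Klf13 (ENSMUSG00000052040), which cooperates with GATA4 in heart development in Xenopus, had 11.8, 19.0, 21.3, 20.1 and 15.1 CPM in TAC and 14.7, 18.2, 15.4, 18.0 and 19.5 CPM in sham. The means of 17.5 and 17.1 CPM differed by less than the spread between libraries (log2 fold change 0.03 ± 0.15 SE, adjusted p = 0.899 by edgeR), and the sign turned when some single libraries were left out. Without TAC replicate 1 it was 0.14 and did not pass (adjusted p = 0.372 by edgeR). Klf5 (ENSMUSG00000005148), a growth-related factor of smooth muscle and epithelium, was close to the detection limit. It had 9, 6, 4, 5 and 6 counts in TAC and 6, 3, 3, 2 and 2 counts in sham, too few to be tested. With no filter on low counts its log2 fold change was 0.88 and its adjusted p 0.131 by edgeR (unadjusted 0.0447), so that it did not pass. These counts are too few to say whether the groups differed.

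**Figure D2:**
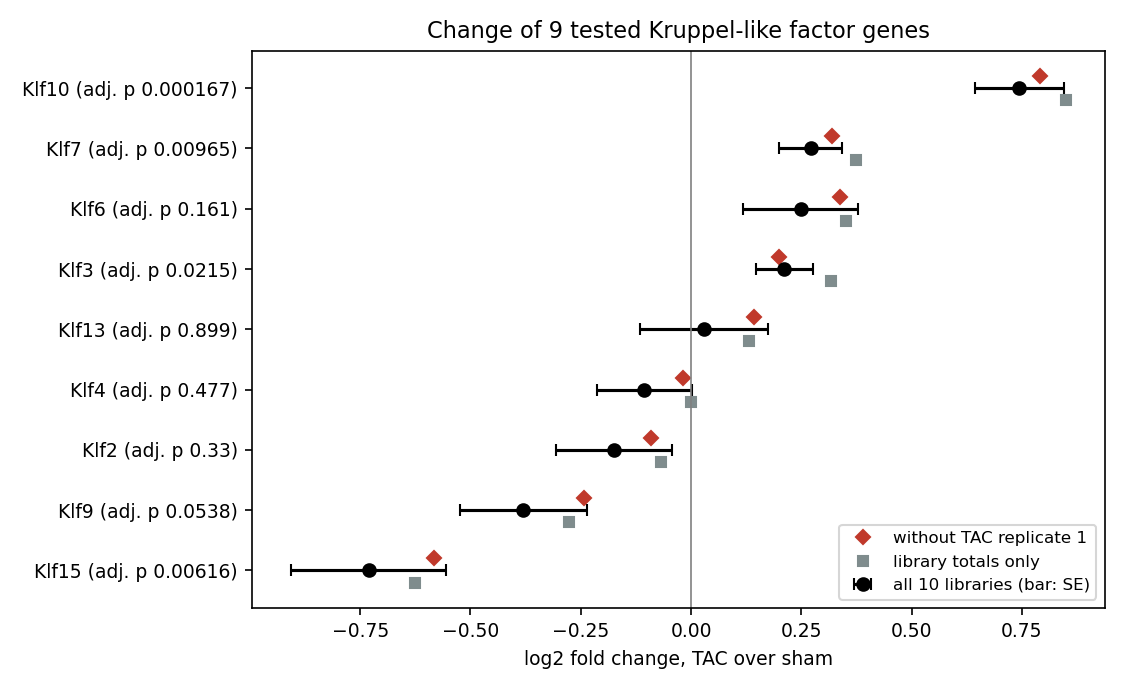
Log2 fold change of TAC over sham (horizontal axis) for the 9 tested genes, with the adjusted p beside each name. Black points with SE bars use all 10 libraries, red diamonds leave out TAC replicate 1 and grey squares use library totals only. Klf15 and Klf10 keep their distance from 0 in all 3 settings, and the grey squares lie to the right of the black points.

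Per length of exon (GENCODE M21, union of exons), the 10 genes spanned levels from Klf2, at 38.3 ± 5.38 CPM per kb in TAC and 43.2 ± 8.32 in sham, to Klf5, at 0.135 ± 0.044 in TAC and 0.0707 ± 0.0315 in sham (SD, n = 5 each). In TAC the order of mean levels was Klf2, Klf4, Klf9, Klf15, Klf6, Klf7, Klf10, Klf3, Klf13 and Klf5. In sham it was Klf2, Klf15, Klf9, Klf4, Klf6, Klf7, Klf10, Klf3, Klf13 and Klf5. Klf15 thus took the fourth place in TAC at 22.5 CPM per kb, and it had the second place in sham at 37.3 CPM per kb. Among the leading genes the library ranges of Klf2, Klf4, Klf9, Klf15 and Klf6 overlapped from each to the next in TAC, as did those of Klf2, Klf15, Klf9 and Klf4 in sham. Within single libraries, Klf2 stood above Klf4 and Klf9 above Klf15 in 5 of 5 TAC libraries, and Klf2 above Klf15 in 5 of 5 sham libraries. The other overlapping neighbours among these kept their order in 4 of 5 libraries. Klf10 and Klf3 overlapped in sham (4.1 and 3.91 CPM per kb) but not in TAC (6.87 and 4.52 CPM per kb). With the longest transcript as the length, Klf3 stood above Klf10 in both groups. Klf15 made up 14.1 ± 1.85% of the summed per-length level of the 10 genes in TAC and 20.8 ± 1.68% in sham. The share of Klf10 was 4.45 ± 0.719% in TAC and 2.33 ± 0.356% in sham, and that of Klf2 was 24.5 ± 1.44% in TAC and 24.1 ± 2.41% in sham (SD, n = 5 each).

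**Figure D3:**
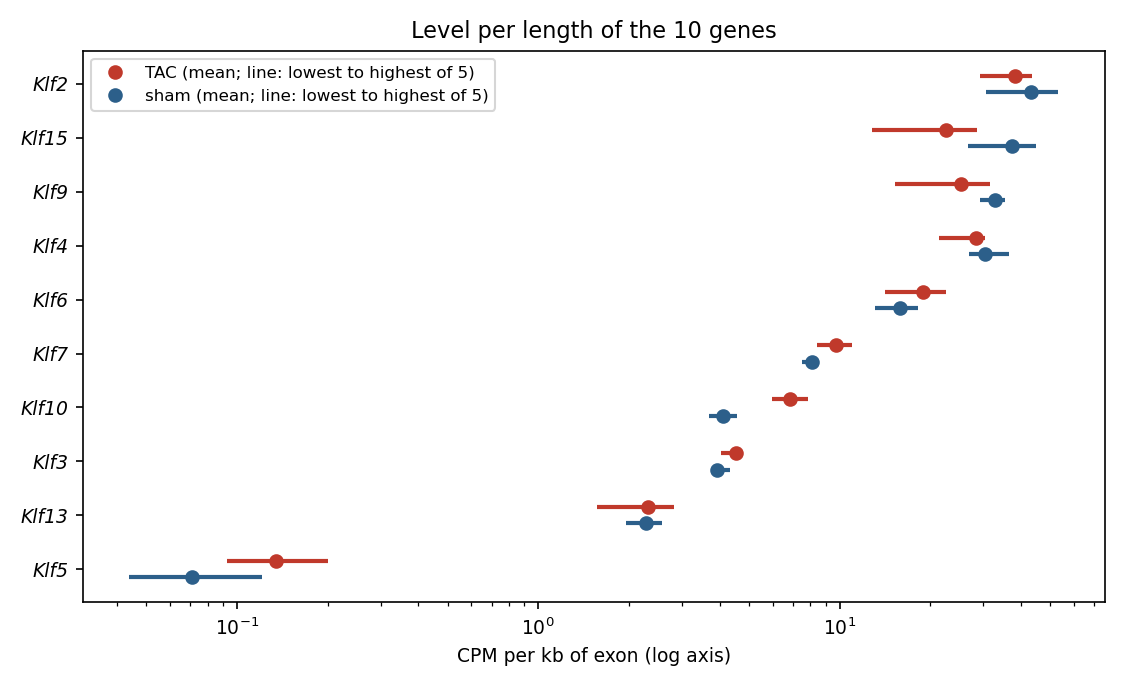
Level per length of the 10 genes in CPM per kb of exon (horizontal log axis), ordered by the sham mean. Points are means of 5 libraries and lines run from the lowest to the highest library, TAC above sham. Klf2 is the highest in both groups, and the mean of Klf5 lies more than 10 times below that of every other gene.

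Markers of the cell types that express these factors also differed between the groups. In bulk tissue fewer cells of a type and less RNA per cell cannot be told apart. The summed level of 15 cardiomyocyte markers was 99107 to 127928 CPM in TAC, below the 132202 to 154645 CPM in sham, and 10 of the 15 fell. That of 15 endothelial markers was 2263 to 2670 CPM in TAC and 2040 to 2369 CPM in sham, with 7 of 15 higher and none lower (9 higher without TAC replicate 1). Fibroblast and macrophage marker sums were higher in every TAC library than in any sham library. Fibroblast markers reached 9597.5 CPM in TAC replicate 1, against 4546 CPM in the lowest TAC library, and gave 2479 to 3144 CPM in sham. Of 12 fibroblast markers, 9 were higher (8 without TAC replicate 1), and Tcf21 and Dpt did not pass. Gsn was lower, at 1152.0 ± 266.5 CPM in TAC and 1598.8 ± 68.3 CPM in sham (SD, n = 5 each; adjusted p = 0.0113 by edgeR). Of 13 macrophage markers, 11 were higher (10 without TAC replicate 1) and none lower. Among all tested genes, 18.8% were higher and 17.0% lower. None of the markers on these 4 lists was at 0 throughout. The part of these shifts in the Klf results was not tested.

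Set against the cardiomyocyte marker sum of its own library, Klf15 was at 0.532 ± 0.103 CPM per 1000 marker CPM in TAC and 0.718 ± 0.112 in sham, a ratio of 0.741 in place of 0.603. Klf9 was at 1.03 ± 0.192 in TAC and 1.10 ± 0.0435 in sham on that scale, so that its mean was at 0.945 of sham. Klf10 was at 0.247 ± 0.0294 in TAC and 0.119 ± 0.014 in sham, with no overlap. Klf6 and Klf7 also had all TAC values above all sham values on this scale. The largest part of the marker sum was Myh6, with a mean of 31778 CPM in TAC and 42830 CPM in sham, while 5 of the 15 markers did not pass. The marker sum itself was lower in every TAC library, with a mean at 0.806 of sham, so a gene with unchanged CPM rises here. Klf13, with a log2 fold change of 0.03, was at 1.26 of sham on it. The share of all genes that separate on this scale was not computed. Set against the endothelial marker sum, Klf2 was at 27.9 ± 2.39 CPM per 1000 marker CPM in TAC and 37.1 ± 9.02 in sham, and Klf4 at 34.0 ± 3.25 in TAC and 42.8 ± 6.62 in sham. Both overlapped between the groups, through sham replicate 2 at 23.9 for Klf2 and 34.5 for Klf4. Klf7 was nearly level on that scale, at 31.3 ± 1.89 in TAC and 30.3 ± 2.4 in sham, and Klf10 stayed without overlap at 11.3 ± 1.41 in TAC and 7.88 ± 0.737 in sham (SD, n = 5 each). These ratios were not tested.

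**Figure D4:**
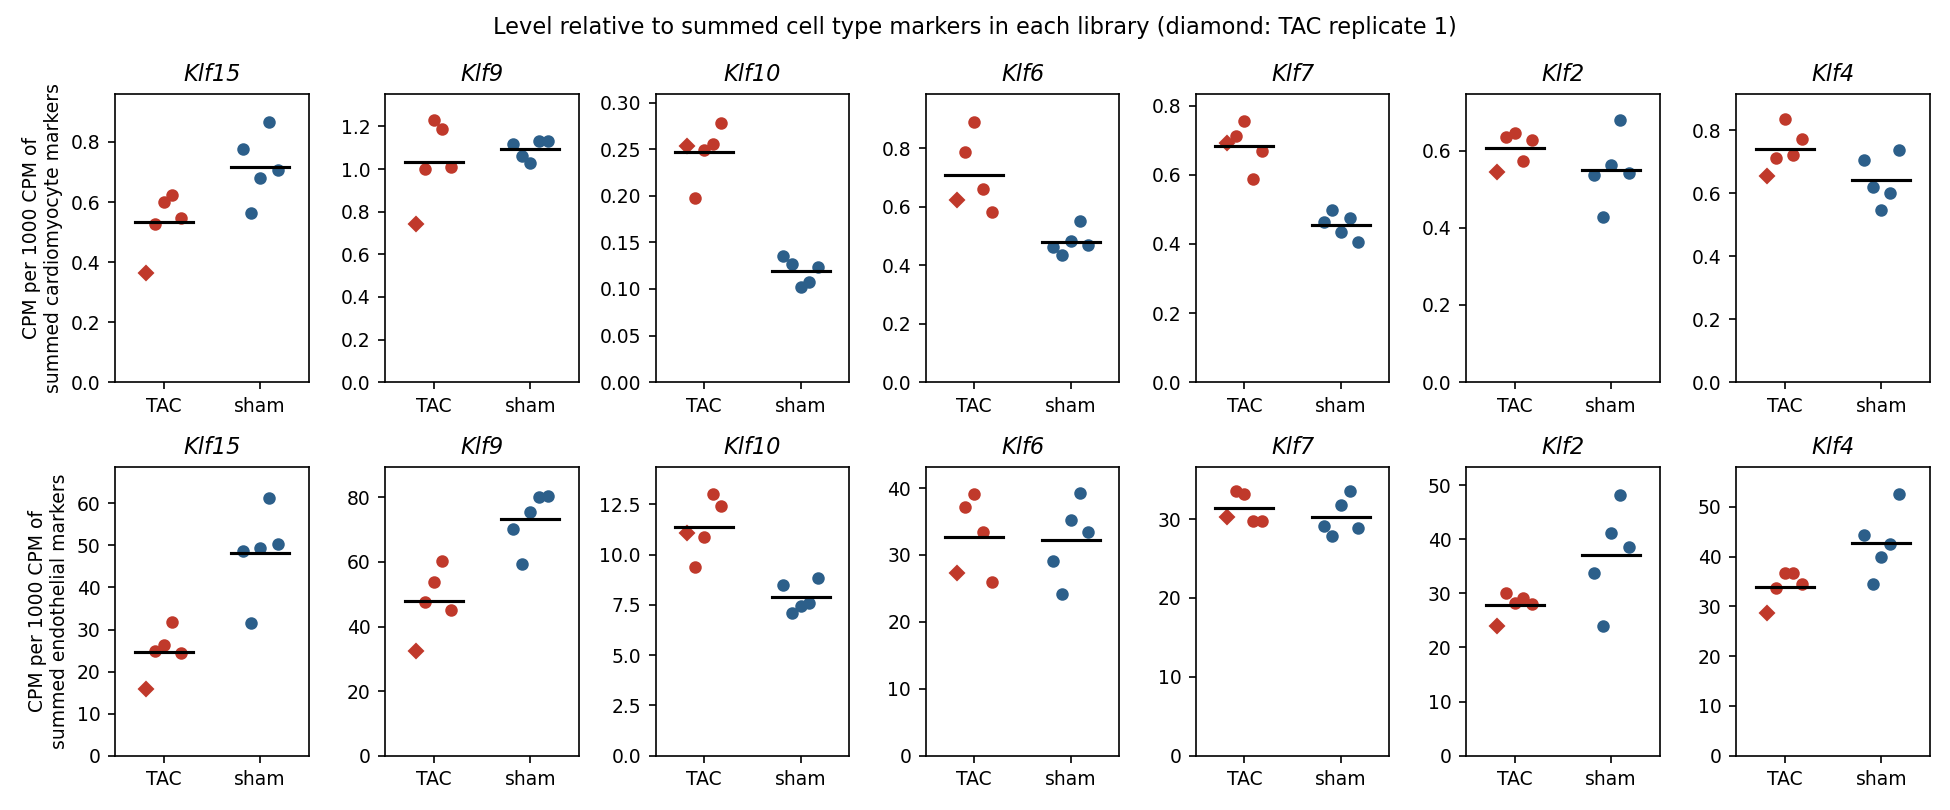
Level of 7 genes per 1000 CPM of summed cardiomyocyte markers (top row) or endothelial markers (bottom row), in each TAC and sham library. Points are libraries (diamond, TAC replicate 1) and lines are means. Klf10 shows no overlap between the groups on either scale, whereas Klf7 separates on the cardiomyocyte scale and overlaps on the endothelial one. The cardiomyocyte marker sum was itself lower in every TAC library.

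Genes that KLF15 is known to activate in mouse heart, muscle or liver, or that take part in the same metabolism, fell together. Of 21 on the list, 20 were tested, and all 20 fell, beside 17.0% of all tested genes (median log2 fold change -0.53, against 0.00 over all tested genes). All TAC values lay below all sham values in 16 of them, beside 11.6% of all tested genes. Without the library labelled TAC replicate 1, 19 fell, Kcnip2 no longer passing (adjusted p = 0.0582 by edgeR). Slc2a4, the insulin-responsive glucose transporter, had 440.2 ± 29.7 CPM in TAC and 637.3 ± 25.8 CPM in sham (adjusted p = 5.16e-05 by edgeR). Bcat2, the mitochondrial branched-chain aminotransferase, had 104.2 ± 2.62 CPM in TAC and 134.6 ± 7.01 CPM in sham. Bckdhb, a subunit of the branched-chain ketoacid dehydrogenase, had 25.3 ± 3.33 CPM in TAC and 39.1 ± 2.51 CPM in sham (SD, n = 5 each), and Acadm, an acyl-CoA dehydrogenase, stood at 0.607 of its sham level. This list, like the others, was chosen with earlier results of these data known, so its counts beside the shares of all genes are only a description. The list is one of cardiomyocyte energy genes, whose cell type markers fell as well, and the part of Klf15 in it was not tested.

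Among factors that KLF15 is known to repress or oppose, the calls lower in TAC depended on the scaling. Of 11 tested, Nppa, Nppb, Ctgf and Mkl1 were higher, Mef2d and Srf were lower and 5 missed the threshold (median log2 fold change -0.04). The shares of all tested genes called were 18.8% higher and 17.0% lower. Nppa, atrial natriuretic peptide, rose 5.58-fold and Nppb, brain natriuretic peptide, 2.62-fold. Mkl1, a coactivator of serum response factor, rose 1.37-fold, while Srf itself stood at 0.863 of its sham level (adjusted p = 0.0493 by edgeR), a call that ended without TAC replicate 1 (adjusted p = 0.0537 by edgeR). Mef2d, a myocyte enhancer factor, stood at 0.869, a call lost when only library totals were used (adjusted p = 0.169 by edgeR). With that scaling, 5 of the 11 were higher (Mef2c joining) and none was lower, against 27.1% and 9.66% of all genes. Srf then had an adjusted p of 0.279 by edgeR.

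Among 16 tested genes linked to KLF2 and KLF4 in endothelium, 7 were higher, 2 lower and 7 missed the threshold (median log2 fold change 0.24). Over all tested genes, 18.8% were higher and 17.0% lower, with a median of 0.00. Of the 15 endothelial markers, which share Tek with this list, 7 were higher and none lower, with a median of 0.19. The part of endothelial cell content in these genes was not tested. Cav1, the caveolar coat protein, rose 1.44-fold, Heg1, a receptor of endothelial junctions, 1.24-fold and Nostrin, which binds endothelial nitric oxide synthase, 1.63-fold. Nos3, that synthase and a gene KLF2 induces, had 99.6 ± 15 CPM in TAC and 75.9 ± 5.44 CPM in sham (SD, n = 5 each; adjusted p = 0.00745 by edgeR), with TAC replicate 1 at 74.2 CPM inside the sham range. Vcam1, Icam1 and Sele, adhesion molecules that KLF2 restrains in cultured endothelium, were higher too, Sele no longer passing without TAC replicate 1 (adjusted p = 0.0801 by edgeR). Thbd, the thrombomodulin gene, which KLF2 induces, had a log2 fold change of 0.10 and did not pass. The genes that fell were Ppap2b and Asb4. Of 11 genes linked to KLF4 and KLF5 in smooth muscle and fibroblasts, Ccnd1, Igf1 and Pdgfra were higher and none was lower. The other 8 did not pass, and the shares over all tested genes are those given above. Pdgfra, which is also one of the fibroblast markers, no longer passed without TAC replicate 1 (adjusted p = 0.0558 by edgeR). The smooth muscle genes Acta2, Tagln, Myh11 and Cnn1 were among those that did not pass.

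Genes of TGF-beta signalling, of which Klf10 is a target in cultured cells, were higher where they changed. Of 12 tested, 6 rose, beside 18.8% of all tested genes, and none fell. These counts also held without TAC replicate 1, and the median over the 12 was 0.21 on the log2 scale. The ligands Tgfb1, Tgfb2 and Tgfb3 rose 1.51-fold, 2.88-fold and 1.49-fold, and the receptor gene Tgfbr2 rose 1.47-fold. Tgfb2 was highest in TAC replicate 1, at 71.5 CPM, the library in which the fibroblast marker sum was also highest. The mean fibroblast and macrophage marker sums were 1.95 and 1.69 times as high in TAC as in sham, and their part in these genes was not tested. Tgif1 and Skil, co-repressors of SMAD proteins, rose 1.78-fold and 1.18-fold. Smad7, an inhibitory SMAD induced by the pathway, had a log2 fold change of 0.04 and did not pass.

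Glucocorticoid-responsive genes, the group to which Klf9 and Klf15 belong in other tissues, had a median log2 fold change of -0.44, yet only 3 of 17 passed, all of them lower, a share near the 17.0% of all tested genes called lower. Zbtb16, a zinc finger repressor strongly induced by glucocorticoids, had 68.5, 171.0, 154.9, 156.0 and 166.1 CPM in TAC and 326.1, 218.9, 295.5, 291.4 and 328.9 CPM in sham, with no overlap (log2 fold change -1.03, adjusted p = 0.00161 by edgeR). As for Klf15, the lowest TAC value was that of replicate 1 and the lowest sham value that of replicate 2. Nr3c2, the mineralocorticoid receptor, and Sgk1, a kinase, fell as well, Sgk1 no longer passing without TAC replicate 1 (adjusted p = 0.0828 by edgeR). Fkbp5, Tsc22d3 and Per1, which also respond to glucocorticoids, had log2 fold changes of -0.29, -0.18 and -0.01 and did not pass.

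Of 23 tested rapidly induced genes, 7 were higher (Ier5, Myc, Jund, Junb, Ier3, Cyr61 and Egr3), Zfp36 and Srf were lower and 14 missed the threshold (median log2 fold change 0.205). Among all tested genes, 18.8% were higher and 17.0% lower. Without TAC replicate 1, 5 of the 23 were higher and none lower, beside 16.7% and 15.1% of all genes. Fosb, one of the most variable of the 23 and chosen for that, ranged between 1.98 and 11 CPM in TAC and between 1.95 and 53.6 CPM in sham. The widest ratio of highest to lowest library among the 9 tested Klf genes was 2.23 in TAC (Klf15) and 1.73 in sham (Klf2). Clock genes, whose phase follows the hour of collection, mostly did not differ beyond their spread: 3 of 18 were higher, 1 lower and 14 did not pass. Neither the higher nor the lower count exceeded the share of all tested genes called in that direction, 18.8% and 17.0%. Bhlhe40 and Bhlhe41, E-box-binding repressors, rose 1.48-fold and 1.44-fold, and Per2 1.71-fold. Arntl, which encodes the E-box activator BMAL1, had 1.96, 8.43, 1.69, 2.40 and 2.09 CPM in TAC and 12.3, 10.0, 7.23, 3.32 and 4.58 CPM in sham (adjusted p = 0.0487 by edgeR; 0.0924 by edgeR without TAC replicate 1). The hour of collection is not given in the sources used here.

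None of 14 tested co-repressors and coactivators (among them Ctbp1, Sin3a, Hdac1 and Ep300) passed by edgeR, beside 35.8% of all tested genes. Their log2 fold changes lay between -0.18 and 0.21. Of 8 ubiquitin ligases that act on KLF proteins or belong to the same families, Fbxw7 was lower, at 0.811 of its sham level (adjusted p = 0.0146 by edgeR), a call lost when only library totals were used (adjusted p = 0.0917 by edgeR). In the wider KLF and SP family, 7 of 16 genes outside the 10 had enough counts. Klf16 rose 1.48-fold, with 16.1 ± 1.7 CPM in TAC and 10.9 ± 0.639 CPM in sham (SD, n = 5 each; adjusted p = 0.000597 by edgeR), and Sp3 rose 1.19-fold. Sp4 fell to 0.678 of its sham level. Klf11, Klf12, Sp1 and Sp2 did not pass. Without TAC replicate 1, Klf11 was called higher (adjusted p = 0.0271 by edgeR; log2 fold change 0.33). Klf17, Sp5 and Sp8 were at 0 counts in all libraries.

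**Figure D5:**
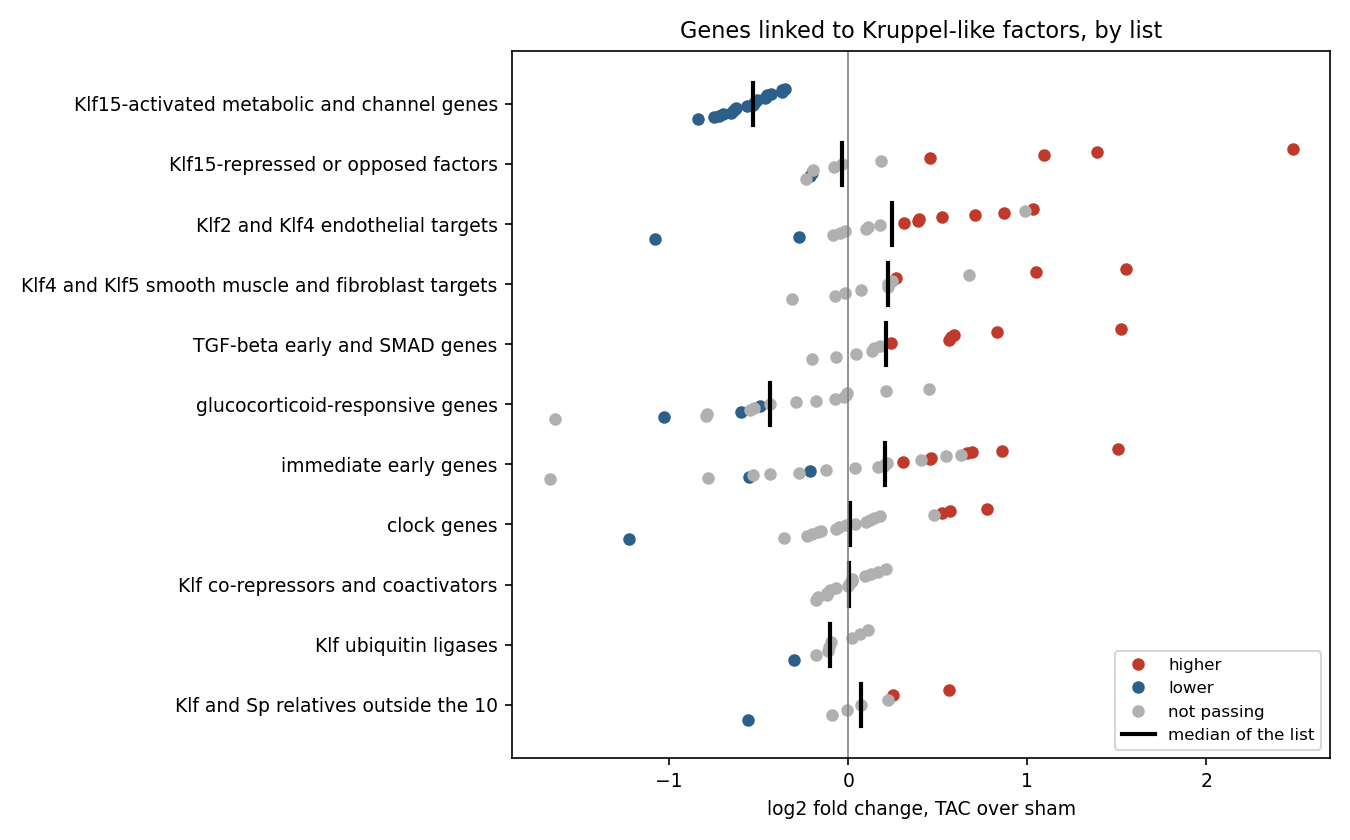
Log2 fold change of TAC over sham (horizontal axis) of each tested gene on 11 lists linked to KLFs. Red points are called higher, blue points lower, grey points did not pass, and black bars are list medians. All 20 tested genes of the KLF15-activated list lie left of 0, and all 14 co-repressors and coactivators are grey.

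Within the groups, several Klf genes moved together from library to library. After the group means of log2 CPM were subtracted, 27 of 36 pairs among the 9 tested genes had a positive Pearson correlation over the 10 libraries, and 22 without TAC replicate 1. Klf15 and Klf9 were the closest pair at 0.926, and 0.814 without that library, followed among the pairs of Klf15 by Klf2 at 0.861 and 0.829. Klf3 ran against Klf6 at -0.794 and -0.836. Other pairs did not hold without TAC replicate 1: Klf7 and Klf9 went from 0.528 to -0.124, and Klf15 and Klf7 from 0.515 to 0.0119. These correlations are descriptions over few libraries that share their scaling, and the share of positive pairs among all genes was not computed. Among 9815 genes with a mean of at least 5 CPM, the pattern most like that of Klf15 was that of Acot7, an acyl-CoA thioesterase (0.974), followed by Klf11 (0.966). The closest to Klf9 were Slc43a3 (0.982) and Slc4a8 (0.979), which encode membrane transporters. For Klf6 they were Ash2l (0.977), a subunit of histone methyltransferase complexes, and Tsc22d3 (0.970), the glucocorticoid-induced leucine zipper. For Klf10 they were Plcb4 (0.916) and Topors (0.914), and for Klf2 Nav2 (0.953) and Tmem82 (0.950). Klf4 was closest to Ube2g1 (0.966) and Lmbrd1 (0.959), Klf13 to 2610030H06Rik (0.973) and Ndrg4 (0.956), Klf3 to Itga8 (0.940) and Gstm4 (0.938), and Klf7 to Rab4a and Axin1 (both 0.928). Each was the best of many genes searched.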

How the data were processed

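Single-end libraries of polyadenylated RNA that do not keep the strand were made from 5 TAC and 5 sham hearts, per the labels' protocols. The sham titles do not name the operation, which comes from the series design text. The authors deposited raw read counts, 1 row per Ensembl gene, without normalization. For TAC, the tools and builds in the submitters' processing notes are, with no order or role given, HTSeq, TopHat 1.3.0, Bowtie, DESeq, edgeR, mm10 and mm9. For sham they are HTSeq, TopHat, TopHat2 2.0.10, Bowtie2, DESeq, edgeR and mm10, and the ID header names GRCm37. Reads of overlapping genes on the other strand cannot be told apart, and any difference in read placement between the versions would fall between the groups. The row of column totals was left out.

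Counts were tested with edgeR 4.0.16 (limma 3.58.1, R 4.3.3) by quasi-likelihood F tests on all 10 libraries, with TMM factors, filterByExpr (minimum count 10, minimum total 15), no covariate beside group, and p-values adjusted by Benjamini-Hochberg over 12001 genes at 0.05. Log2 CPM used a prior count of 2. Alternatives were DESeq2 1.42.0, limma-voom, other scalings, filters and dispersion settings, a replicate block and leaving out each library. On simulated counts for TAC over sham with 200 of 12001 genes changed, the test recovered 76.1% of 1.5-fold, 89.6% of 2-fold and 98.5% of 4-fold changes. In the data 35.8% of genes were called, a larger share than was simulated. No change below 1.5-fold was simulated, so recovery at the size of Klf3, Klf6 and Klf7 (1.16-fold, 1.19-fold and 1.21-fold) is not known. Genes were matched to GENCODE M21 by Ensembl ID (94.6% of 20692) for length, and promoters by symbol to RefSeq on GRCm38.p6. The chi-square per gene between replicates lay between 2.67 and 24.9, so no library was counted as a repeat. The series text counts mice, but no animal identifiers are given, and p-values measure the spread between these samples.

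The members and gene lists were chosen with earlier results of these data known. The text names all members, up to 4 genes per list with the smallest adjusted p, genes that make up small counts and the 2 genes most alike in pattern to each member. Other list members were named after their values were seen. The result of a further list gene when only library totals were used is not reported here.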

Additional observations from a re-analysis of the deposited data

Results flagged for a closer look

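In 20 groups of 5 libraries (10 genes, TAC and sham), 1 library stood apart from the rest of its group by Dixon's criterion, and chance alone marks about 1 in 20 groups. Klf4 had 64.8 CPM in the library labelled TAC replicate 1, against 89.7 to 92.8 CPM in the other TAC libraries. This is the library that went against its female label. Its part in the Klf4 result was not tested, and leaving it out gave Klf4 a log2 fold change of -0.02 in place of -0.11.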

How the results depend on the processing

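Klf10, Klf15 and Klf7 kept their direction and their call under all 19 alternatives, and Klf2 and Klf4 did not pass under any. The count of members higher in TAC was 3 (2 to 4 with a library left out). The count of members lower was 1, and it was 2, Klf9 being added, with the replicate block, limma-voom and DESeq2, and 1 to 2 with a library left out. Over all genes, 4291 were called, and 3615 to 4159 with a library left out. Klf3 lost its call with the replicate block (adjusted p = 0.0557 by edgeR). The log2 fold change of Klf13 ran between -0.051 and 0.14 with a library left out, changing sign in 5 of these sets. When only library totals were used, the median over all genes was 0.11 on the log2 scale, and 3257 genes were higher and 1159 lower in place of 2251 and 2040. The cause of these shifts was not tested. The replicate numbers were not treated as pairs in the main fit. Correlations of same-numbered deviations ran from -0.0916 to 0.222, and 2 of 5 TAC libraries were closest to their own number. The block moved the count of called genes to 4037. These values do not settle whether the numbers mark pairs. With the longest transcript as length, Klf3 had 9.74 CPM per kb in TAC and 8.42 in sham. Counts as low as those of Klf5 limit what can be seen.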
